A study of Rattus norvegicus with 46 samples.

Results

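The auxiliary enzymes for the oxidation of unsaturated fatty acids were followed in the hearts of rats with cardiac hypertrophy. The genes Decr1, Ech1, Eci1 and Eci2 were chosen by name, and a probe set was used where the array annotation paired it with exactly 1 of these 4 symbols. This gave 7 of the 8740 probe sets on the array, 2 for Decr1, 1 for Ech1 and 4 for Eci1. Eci2 had 0 such probe sets and was not analysed here, so 3 of the 4 genes were measured.

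The beta-oxidation spiral of the mitochondrion shortens fatty acids step by step, and it can pass a double bond only where the bond has the position and geometry that enoyl-CoA hydratase accepts. The double bonds of oleate, linoleate and other natural unsaturated fatty acids do not meet this demand, and auxiliary enzymes shift or reduce them. Eci1, an enoyl-CoA delta isomerase, moves a double bond along the chain, Ech1, a dienoyl-CoA isomerase, rearranges neighbouring double bonds, and Decr1, the mitochondrial dienoyl-CoA reductase, removes a double bond at the cost of NADPH. The adult heart gains most of its ATP from fatty acids.

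Each of 46 arrays carried RNA pooled from the ventricles of several rats, and the adult rats were male Wistar animals. Neonatal hearts, taken a few days after birth, gave 2 arrays. Hypertrophy was induced in adult rats by a clip around the ascending aorta (aortic banding, examined after 6, 12, 16 and 30 weeks with 2, 2, 2 and 4 arrays), by ligation of a coronary artery (myocardial infarction, after 3 and 9 weeks with 4 arrays each), by a shunt between aorta and caval vein (volume overload, after 3 and 8 weeks with 2 arrays each), by infusion of angiotensin II from implanted pumps, or by daily injection of the thyroxine analogue Ditpa (2 arrays each). The references were 2 arrays from sham-operated rats at each surgical time point and 2 arrays from vehicle-treated rats that served both hormone groups, which made 26 hypertrophic and 18 adult control arrays. Both hormone treatments and the vehicle lasted 2 weeks. The sample labels describe Ditpa as a subcutaneous infusion, whereas the methods give daily injections. As controls the methods give pumps with vehicle for angiotensin II and saline for Ditpa. The labels describe the 2 vehicle arrays as a saline infusion, so whether they matched the route of Ditpa is not clear. In the infarction model only hearts with large transmural infarcts entered, and the scar was removed before RNA was extracted. Neonatal hearts differed from the adult ones in age and in being a set of their own, and these cannot be told apart.

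Values are model-based intensities in arbitrary units, normalized between arrays by the authors. The arrays had similar overall brightness, with medians between 1003 and 1084, and no array stood apart for any of the 3 genes within the groups of 4. A difference is given on the log2 scale (a hypertrophic group minus its own controls) with its standard error from one limma fit over all arrays, and a call means that the p-value, adjusted by Benjamini-Hochberg over all 8740 probe sets, was below 0.05. A gene is given by its brightest probe set, and the other probe sets are described further on. In RNA from whole ventricle, fewer cells of a type and less RNA per cell cannot be told apart.

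Transcripts of all 3 measured enzymes were less abundant in hypertrophic hearts. Averaged with equal weight over the 10 hypertrophic groups, Decr1 fell by 0.56 ± 0.0696 log2 (32% lower, limma adjusted p = 2.42e-06), Ech1 by 0.51 ± 0.0612 (29.9% lower, adjusted p = 1.15e-06) and Eci1 by 0.36 ± 0.0463 (22.3% lower, adjusted p = 3.42e-06). Of all probe sets, 1.57% were called lower in this average. Banding makes up 4 of its 10 groups. With the 5 models weighted equally the values were smaller, at -0.37 for Decr1 (adjusted p = 0.0368), -0.38 for Ech1 (adjusted p = 0.00905) and -0.23 for Eci1 (adjusted p = 0.0453), and 0.378% of probe sets were called lower. Ech1 was below the mean of its controls on 26 of 26 hypertrophic arrays, Decr1 on 24 and Eci1 on 23, and 0.0572% of probe sets (5 of 8740) were lower on all 26. By model, the genes passed the test after aortic banding and after infarction, and not in the shunt and hormone groups; the test of a difference between models, given further on, passed for none of the 3. Without the banding arrays the average of Decr1 was -0.29 (adjusted p = 0.138) and that of Eci1 -0.20 (adjusted p = 0.0988), so these 2 calls rested on the banding groups, whereas Ech1 at -0.29 still passed (adjusted p = 0.0158). Each array holds a pool, so the p-values reflect how pools, rather than single animals, vary.

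**Figure D1:**
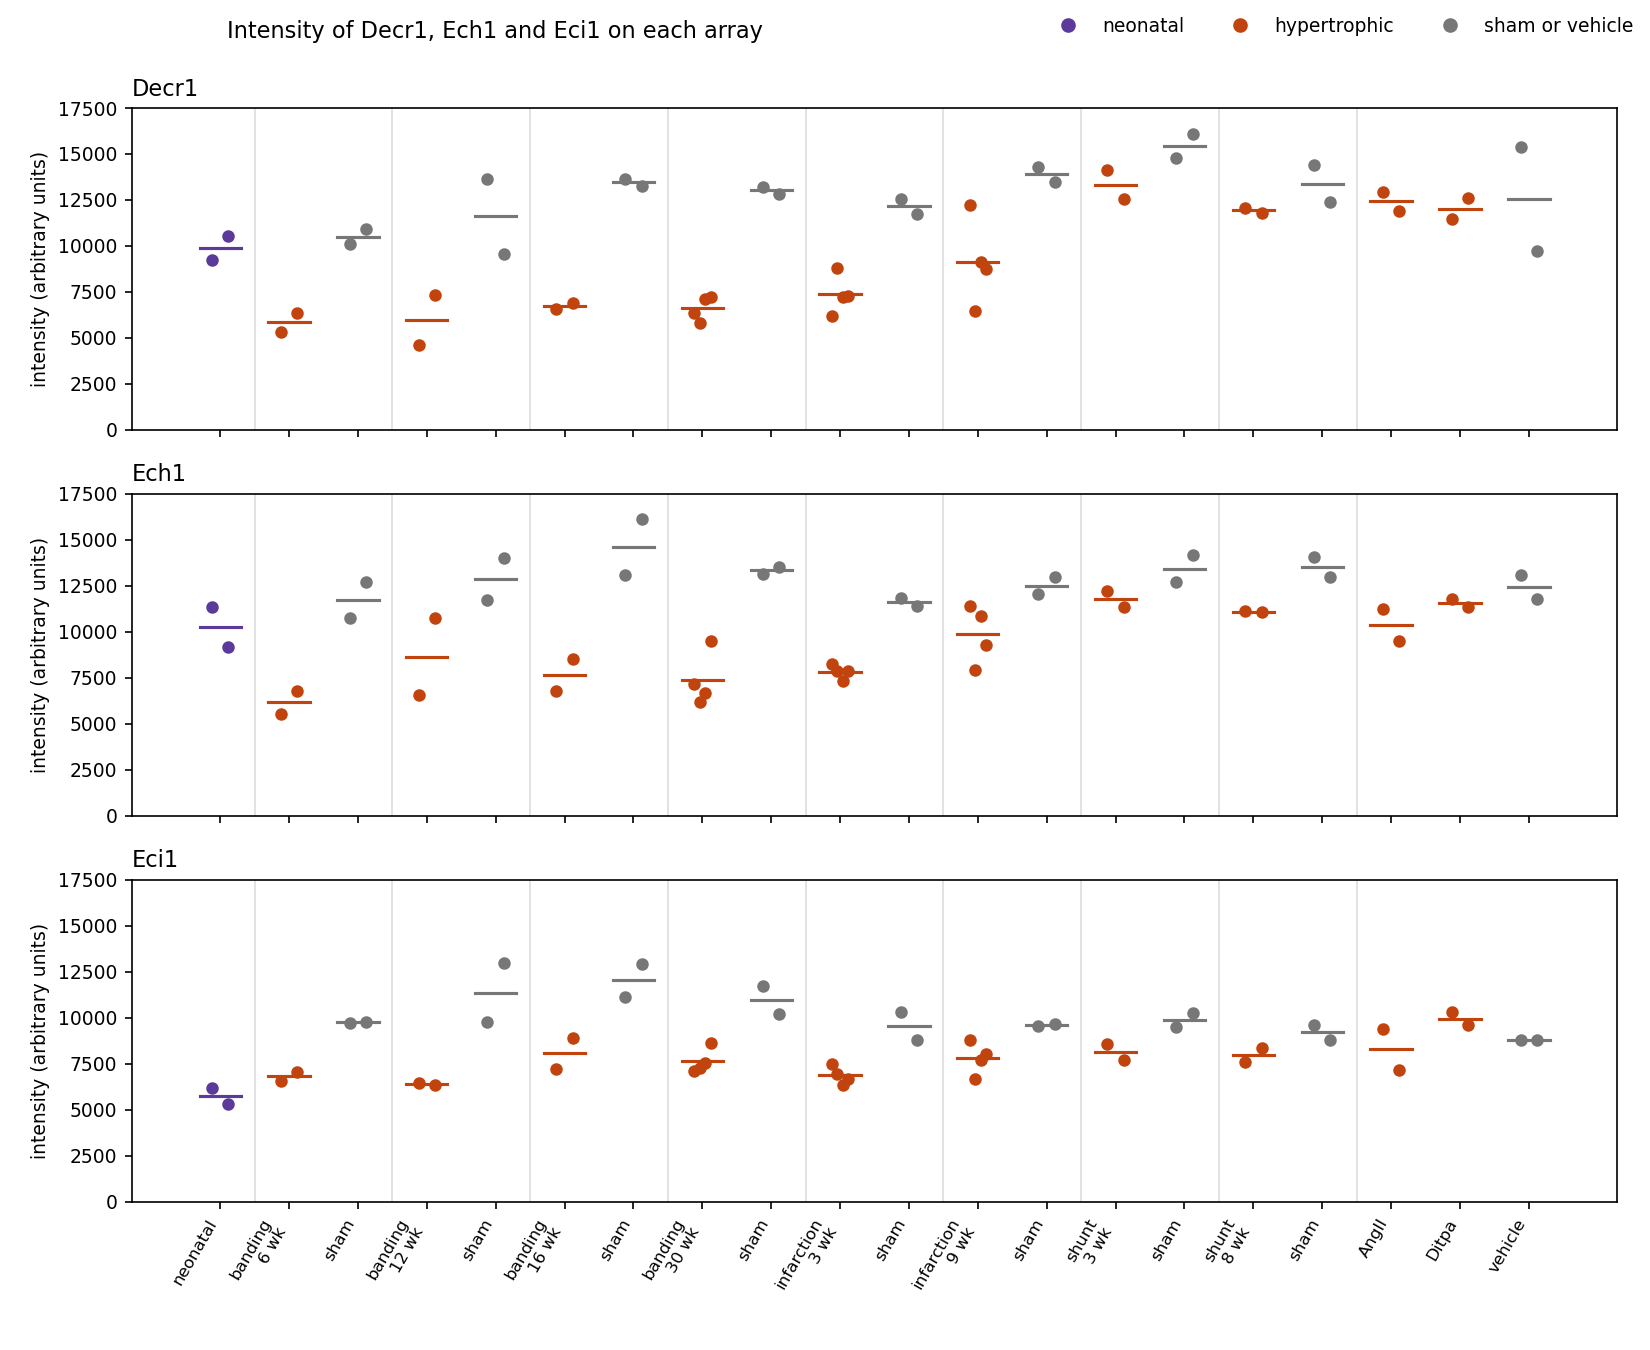
Intensity (arbitrary units, linear axis from 0) of the brightest probe set of Decr1, Ech1 and Eci1 on each of the 46 arrays, with neonatal arrays in purple, hypertrophic arrays in red and sham or vehicle arrays in grey; each point is 1 array and each line a group mean. Ech1 points of every hypertrophic group lie below all their controls, whereas Decr1 overlaps its vehicle arrays in both hormone groups.

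Decr1, the reductase needed for fatty acids with double bonds at even positions, fell after banding. At 6 weeks its intensity was 5314 and 6367 in banded hearts, against 10099 and 10892 in shams. At 12 weeks it was 4606 and 7316 in banded hearts, against 9559 and 13656 in shams. At 16 weeks it was 6587 and 6880 in banded hearts, against 13271 and 13657 in shams. None of these groups overlapped, and the widest spread of intensity between pools was that of the 12-week shams. On the log2 scale the 12-week banded pools were the most spread out (SD 0.472, against 0.363 in their shams). Over all probe sets and the 10 hypertrophic groups, 14.9% of comparisons had every treated array below every control. That share is the reference for each such gap described here and below. After 30 weeks the 4 banded pools gave 5781, 6353, 7131 and 7190, against 12816 and 13215 in shams, again with a clear gap. The mean over the 4 banding time points was -0.95 ± 0.105 log2 (48.3% lower, limma adjusted p = 2.02e-07, lower on 10 of 10 arrays), and 1.98% of all probe sets were called lower after banding. This call held without any 1 of the 46 arrays.

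The single banding time points were called for Decr1 at 12 weeks (-0.98 ± 0.218, limma adjusted p = 0.0347), 16 weeks (50% lower, with an SE of 0.218 log2, adjusted p = 0.0256) and 30 weeks (-0.98 ± 0.188, adjusted p = 0.00347), when 0.103%, 0.492% and 0.172% of probe sets were called lower. At 6 weeks Decr1 was at -0.85 ± 0.218 (adjusted p = 0.0658), and 0.183% of probe sets were called lower; it passed without any 1 of 8 arrays of other groups (both pools of the 12-week banding and sham groups, both vehicle pools and 9-week infarction replicates 1 and 2), at the same difference and adjusted p of 0.0301 to 0.0478. With 2 pools a group these calls were fragile. With arrays weighted by their estimated quality the 12-week call of Decr1 was lost (-0.98, adjusted p = 1). With the mean of its 2 probe sets the calls at 12 weeks (-0.83, adjusted p = 0.284) and 16 weeks (-1.10, adjusted p = 0.0569) were lost, and after quantile normalization 6 weeks passed (-0.93, adjusted p = 0.0174). The 12-week call of Decr1 was lost without sham replicate 3 (-0.72, adjusted p = 0.197) or banded replicate 1 (-0.64, adjusted p = 0.317), and the 30-week call without sham replicate 5 (-0.96, adjusted p = 0.164). The 16-week call was lost without any 1 of its own 4 arrays, at values between -1.03 and -0.97.

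After infarction Decr1 read 6167, 7207, 7255 and 8785 in the surviving myocardium at 3 weeks, against 11724 and 12571 in shams. At 9 weeks it read 6456, 8735, 9147 and 12196 in infarcted hearts, against 13452 and 14312 in shams. The groups did not overlap at either time, although 1 of the infarcted pools at 9 weeks came close to its shams. Over both times Decr1 was at -0.69 ± 0.133 log2 (37.9% lower, limma adjusted p = 0.00268, lower on 8 of 8 arrays), where 0.252% of all probe sets were called lower. The call held without any 1 array, with adjusted p at most 0.026. Taken singly, 3 weeks (-0.73 ± 0.188, adjusted p = 0.115) and 9 weeks (-0.64 ± 0.188, adjusted p = 0.0693) did not pass, and 0% and 0.229% of probe sets were called lower at these times. The 9-week value of Decr1 passed without infarction replicate 1 (-0.79, adjusted p = 0.0368) or without either banded pool of 12 weeks (-0.64, adjusted p = 0.0457), and after quantile normalization (-0.73, adjusted p = 0.0289). With array weights Decr1 passed at 3 weeks (-0.70, adjusted p = 0.0178) and at 9 weeks (-0.92, adjusted p = 0.0012).

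In volume-overloaded hearts Decr1 stood at 12523 and 14104 after 3 weeks of shunt, against 14789 and 16066 in shams. After 8 weeks it stood at 11791 and 12083 in shunt hearts, against 12373 and 14373 in shams. All 4 shunt pools were below their shams. The mean over both times was -0.19 ± 0.154 (limma adjusted p = 0.816), with a 95% interval of -0.50 to 0.13. Angiotensin II gave 11887 and 12940 and Ditpa gave 11439 and 12607, against 9703 and 15397 in vehicle hearts. Both hormone groups lay between the 2 vehicle pools, which differed from each other more than from the treated pools. The differences of Decr1 were 0.02 ± 0.218 with angiotensin II and -0.03 ± 0.218 with Ditpa (limma adjusted p = 1 for both), and each changed sign when 1 vehicle pool was left out (to -0.31 with angiotensin II without vehicle replicate 2, and to 0.31 with Ditpa without vehicle replicate 1) or 1 treated pool (to -0.04 without angiotensin II replicate 1, and to 0.05 without Ditpa replicate 1).

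Ech1, which acts on fatty acids with double bonds at odd positions, gave 5522 and 6800 in banded hearts at 6 weeks, against 10737 and 12728 in shams. At 12 weeks the intensities were 6535 and 10766 in banded hearts, against 11707 and 14030 in shams. At 16 weeks they were 6759 and 8523 in banded hearts, against 13114 and 16138 in shams. The groups were apart at each time, most narrowly at 12 weeks, where 1 banded pool lay just under its shams. At 30 weeks Ech1 read 6193, 6691, 7147 and 9505 in banded hearts, against 13153 and 13518 in shams. Over the 4 time points Ech1 was at -0.84 ± 0.0926 (44.1% lower, limma adjusted p = 2.02e-07, lower on 10 of 10 arrays), and this held without any 1 array.

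Ech1 was called at 6 weeks (-0.93 ± 0.191, limma adjusted p = 0.00995), 16 weeks (-0.94 ± 0.191, adjusted p = 0.0151) and 30 weeks of banding (-0.87 ± 0.166, adjusted p = 0.00308). At 12 weeks Ech1 was at -0.61 ± 0.191 (adjusted p = 0.222), and at -0.97 without banded replicate 2, when it passed (adjusted p = 0.00903). Leaving out a single pool ended each of the other calls of Ech1. This was so at 6 weeks for sham replicate 4 (-0.81, adjusted p = 0.104) and banded replicate 1 (-0.78, adjusted p = 0.31), at 16 weeks for sham replicate 4 (-0.79, adjusted p = 0.549) and banded replicate 1 (-0.77, adjusted p = 0.181), and at 30 weeks for sham replicate 5 (-0.89, adjusted p = 0.102).

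In infarcted hearts Ech1 read 7325, 7868, 7890 and 8248 at 3 weeks, against 11378 and 11844 in shams. At 9 weeks it read 7904, 9264, 10869 and 11393 in infarcted hearts, against 12051 and 12967 in shams. The 3-week pools were tightly grouped and well below their shams, and the 9-week pools were spread out up to the shams. The mean of both times was -0.46 ± 0.117 (27.5% lower, limma adjusted p = 0.0264). This call of Ech1 was lost without any 1 of the 4 infarction sham arrays (values between -0.49 and -0.44, adjusted p up to 0.131), without 3-week infarction replicate 5 (-0.45, adjusted p = 0.0541) and without 9-week infarction replicate 2 (-0.41, adjusted p = 0.062). Neither time passed singly (-0.57 ± 0.166 at 3 weeks and -0.36 ± 0.166 at 9 weeks, adjusted p = 0.266 and 0.325), but both did with array weights (-0.57 and -0.55, adjusted p = 0.00863 and 0.00827).

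The shunt gave Ech1 intensities of 11367 and 12207 at 3 weeks, against 12714 and 14161 in shams. At 8 weeks they were 11081 and 11118 in shunt hearts, against 12973 and 14084 in shams. In the hormone experiment Ech1 read 9523 and 11259 with angiotensin II and 11369 and 11790 with Ditpa, against 11810 and 13103 in vehicle hearts. Every treated pool lay below every control pool here too, with only a narrow gap between Ditpa and vehicle. The differences were -0.24 ± 0.135 for the shunt (limma adjusted p = 0.658, 95% interval -0.51 to 0.04), -0.26 ± 0.191 for angiotensin II and -0.10 ± 0.191 for Ditpa (adjusted p = 1 for both). Ech1 was therefore below all its controls in 10 of 10 comparisons, and Decr1 and Eci1 were so in 8 of 10 each; over all probe sets, 14.9% of comparisons had every treated array below every control.

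Eci1, which isomerises double bonds so that the spiral can go on, had the smallest average change of the 3 by its brightest probe set. Its intensities were 6581 and 7042 in hearts banded for 6 weeks, against 9738 and 9770 in shams. They were 6324 and 6467 in hearts banded for 12 weeks, against 9748 and 12979 in shams. They were 7214 and 8916 in hearts banded for 16 weeks, against 11129 and 12949 in shams. In all of these the banded and sham pools were apart. At 30 weeks Eci1 read 7088, 7255, 7550 and 8597 in banded hearts, against 10212 and 11745 in shams. Over the 4 times Eci1 was at -0.61 ± 0.0701 (34.5% lower, limma adjusted p = 3.85e-07, lower on 10 of 10 arrays), a call that held without any 1 array.

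Eci1 was called at 12 weeks (-0.81 ± 0.145, limma adjusted p = 0.00383), 16 weeks (-0.58 ± 0.145, adjusted p = 0.0484) and 30 weeks (-0.53 ± 0.125, adjusted p = 0.026), and not at 6 weeks (-0.52 ± 0.145, adjusted p = 0.113). The 16-week call of Eci1 lay at the threshold and was kept in 11 of 46 fits with 1 array left out; without 1 of its own 4 arrays Eci1 lay between -0.74 and -0.43. The 12-week call was lost without sham replicate 4 (-0.61, adjusted p = 0.0505) and with array weights (adjusted p = 1), and the 16-week call after quantile normalization (-0.49, adjusted p = 0.114). The 30-week call was lost without sham replicate 5 (-0.43, adjusted p = 0.693), sham replicate 6 (-0.63, adjusted p = 0.0513), banded replicate 1 (-0.49, adjusted p = 0.0861) or banded replicate 2 (-0.51, adjusted p = 0.0788).

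After infarction Eci1 gave 6341, 6689, 6941 and 7485 at 3 weeks, against 8805 and 10292 in shams. It gave 6662, 7684, 8021 and 8775 in infarcted hearts at 9 weeks, against 9546 and 9644 in shams. The infarcted pools were below their shams at both times. The mean was -0.39 ± 0.0886 (23.8% lower, limma adjusted p = 0.0117), and neither time passed singly (-0.47 ± 0.125 at 3 weeks and -0.31 ± 0.125 at 9 weeks, adjusted p = 0.137 and 0.243) except with array weights (-0.47 and -0.44, adjusted p = 0.023 and 0.0212). Eci1 lost the infarction call without sham replicate 1 of 3 weeks (-0.34, adjusted p = 0.107) or sham replicate 5 (-0.40, adjusted p = 0.0598) or 6 (-0.39, adjusted p = 0.0534) of 9 weeks, in a fit restricted to the arrays of this model (-0.39, adjusted p = 0.0638) and when its 4 probe sets were averaged (-0.21, adjusted p = 0.117).

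In the shunt hearts Eci1 read 7690 and 8553 at 3 weeks, against 9521 and 10255 in shams. At 8 weeks it read 7611 and 8373 in shunt hearts, against 8784 and 9625 in shams. In the hormone experiment it read 7138 and 9410 with angiotensin II and 9577 and 10291 with Ditpa, against 8764 and 8767 in vehicle hearts. The shunt pools were below their shams, the angiotensin II pools fell on either side of vehicle, and both Ditpa pools were above it. The shunt difference was -0.24 ± 0.102 (limma adjusted p = 0.492, 95% interval -0.45 to -0.04). The angiotensin II difference was -0.10 ± 0.145 and the Ditpa difference 0.18 ± 0.145 (adjusted p = 1 for both).

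**Figure D2:**
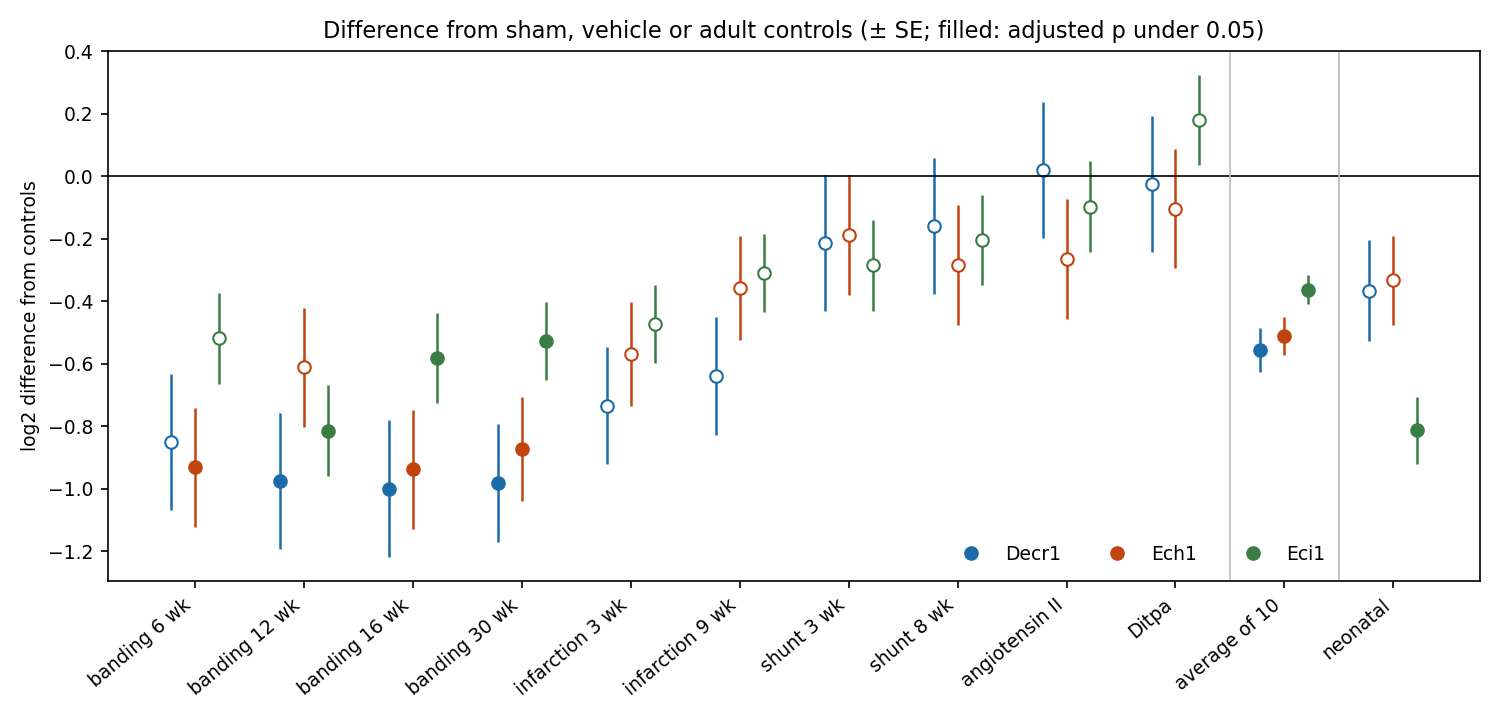
Log2 difference of Decr1 (blue), Ech1 (red) and Eci1 (green) from sham or vehicle arrays in each of the 10 hypertrophic groups, their average, and neonatal minus adult control hearts; bars are ± SE and filled points passed an adjusted p of 0.05. Of the 30 gene and group values in the first 10 columns, 28 lie below 0 and 9 are filled, all of them in banding groups.

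Set beside each other, 28 of the 30 gene and group differences were below 0, against 48.6% of those of all probe sets in the same 10 groups. Of the 30, 18 were lower at an unadjusted p below 0.05, against 3.17% over all probe sets, and 9 were called lower, against 0.119%. All 9 calls were in banding groups. With array weights 13 were called, among them all 6 infarction values, and with the mean of each gene's probe sets 4 were. In the shunt and hormone groups none of the 3 genes was called, where 0% of probe sets were called lower at 3 weeks of shunt, 0.0114% at 8 weeks, and 0% with either hormone; at an unadjusted p below 0.05 the count was 0 of 3 in each of these groups and 1 of 3, Eci1, in the mean of both shunt times, and the methods' rank sum test was not run per group. Whether the 5 models differed was tested directly with a moderated F test, which called 0.275% of probe sets. None of the 3 genes passed it after adjustment (Decr1 adjusted p = 0.0707, Eci1 0.08, Ech1 0.23), although each had an unadjusted p below 0.05 (0.000307, 0.000448 and 0.00224).

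Time since surgery made no difference that could be detected. Between 6 and 30 weeks of banding the difference from shams moved by -0.13 ± 0.288 log2 for Decr1, 0.06 ± 0.253 for Ech1 and -0.01 ± 0.191 for Eci1. Between 3 and 9 weeks of infarction it moved by 0.10 ± 0.266, 0.21 ± 0.234 and 0.17 ± 0.177 for the same genes. None was called by limma (adjusted p of at least 0.955, and 0 of 3 at an unadjusted p below 0.05 in each), and of all probe sets 0.0114% were called in banding and 0% in infarction and shunt. The 95% intervals were wide, as that of -0.72 to 0.46 for Decr1 in banding shows. It left room for sizeable changes with time. It did not reach the single banding differences of Decr1, such as -0.85 at 6 weeks and -0.98 at 30 weeks.

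Decr1 and Ech1 fell further than Eci1 in hypertrophic hearts when Eci1 was taken by its brightest probe set, and not by its second. The difference between 2 genes was formed within each array and tested by permuting hypertrophic and control labels within time points over 44 arrays (two-sided permutation test, 100000 resamples, Benjamini-Hochberg over the 3 pairs). Relative to Eci1, Ech1 was lower, with a difference of -0.15 log2 (permutation p = 0.00923, adjusted p = 0.0277, below on 22 of 26 arrays), as was Decr1 with -0.19 (permutation p = 0.0238, adjusted p = 0.0356, on 21 of 26). The difference between Decr1 and Ech1 was -0.04 (permutation p = 0.519, adjusted p = 0.519, on 15 of 26). With the second brightest probe set of Eci1, an alternative added after the values were seen, Ech1 was at -0.03 relative to Eci1 (permutation p = 0.542, below on 15 of 26 arrays) and Decr1 at -0.08 (permutation p = 0.291, on 17 of 26), so neither difference passed.

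Over the 26 log2 ratios of hypertrophic arrays to their controls, Decr1 and Ech1 correlated with r = 0.84 (Spearman's rho 0.86), Decr1 and Eci1 with r = 0.80 (rho 0.81) and Ech1 and Eci1 with r = 0.74 (rho 0.81). These are descriptions over arrays that share controls and labelled groups. The genes closest to Decr1 among 4735 others were Aqp7, the glycerol channel (r = 0.91), Acaa2, the thiolase of the beta-oxidation spiral (r = 0.85), and Ech1. Those closest to Ech1 were again Aqp7 (r = 0.93) and Acaa2 (r = 0.89), followed by Impa2, an inositol monophosphatase (r = 0.88). Eci1 was closest to Cpt2, the inner membrane carnitine acyltransferase (r = 0.83), then Decr1 and Pdk4, the kinase that switches off pyruvate dehydrogenase (r = 0.80). Aqp7 fell by 0.55 ± 0.0741 log2 on average (limma adjusted p = 8.36e-06), whereas Pdk4, which varied together with Eci1, had an average of 0.08 ± 0.116 (adjusted p = 0.81).

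The 7 probe sets did not all tell the same story. The second probe set of Decr1, of lower brightness (mean intensity 3324), was at -0.95 ± 0.175 after banding (limma adjusted p = 0.000669) and at -0.48 ± 0.116 on average (adjusted p = 0.01, lower on 19 of 26 arrays), and its ratios followed the first with r = 0.90. It was not called after infarction (-0.63 ± 0.222, adjusted p = 0.178), at any single banding time (adjusted p of 0.144 to 0.616) or with the models weighted equally (-0.24 ± 0.147, adjusted p = 0.78), and lay below all its controls in 4 of 10 comparisons. For Eci1 the brightest probe set (mean 8566) and the next (mean 8513) both fell, the second of them by 0.48 ± 0.0666 on average (adjusted p = 1.1e-05, lower on 25 of 26 arrays). Of the single banding times this second probe set was called at 16 weeks (-0.96 ± 0.208, limma adjusted p = 0.0256). It was not called at 6, 12 or 30 weeks (adjusted p = 0.104, 0.067 and 0.161). The third (mean 1748) was at -0.06 ± 0.051 (adjusted p = 0.633). The dimmest (mean 667, at percentile 32.1 of all probe sets) was at 0.17 ± 0.074 (adjusted p = 0.221), below its controls on only 6 of 26 arrays. With the mean of all its probe sets in place of the brightest, the average of Eci1 was -0.18 (adjusted p = 0.000978) and its banding difference -0.295 (adjusted p = 0.000481), and none of its time points of banding was called. Which transcripts the 4 probe sets of Eci1 detect was not tested.

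**Figure D3:**
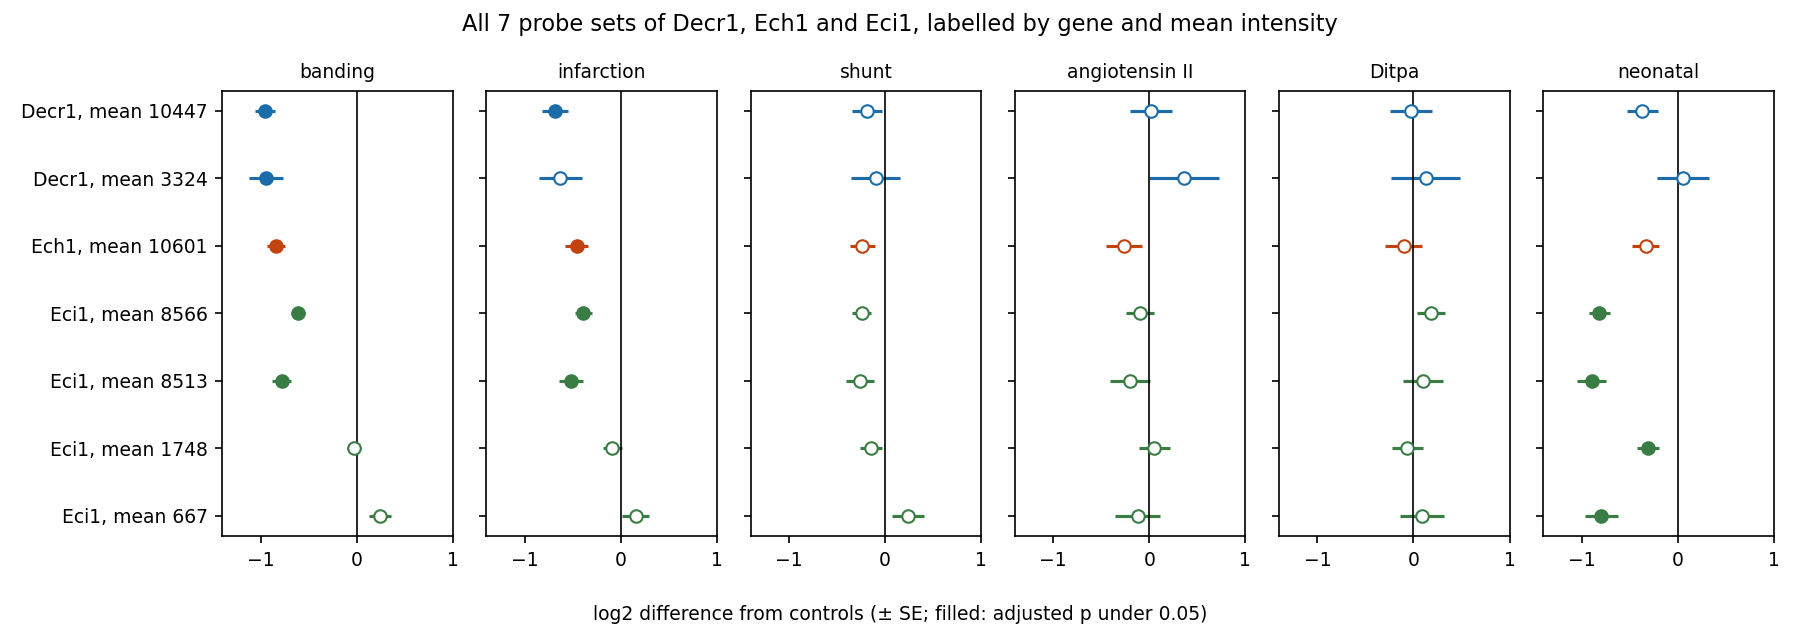
Log2 difference from controls (± SE, filled where adjusted p was below 0.05) of all 7 probe sets in the 5 hypertrophy models and in neonatal minus adult control hearts; each line is labelled by gene and mean intensity over 46 arrays. After banding the 2 bright probe sets of Eci1 lie far left of 0 and its 2 dim ones do not, whereas in neonatal hearts all 4 lie left of 0.

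The start of Eci1 is shown because Decr1, Ech1 and Eci1 moved together and Eci1 is the 1 gene of the 3 that the promoter table used here contains. Fatty acid oxidation genes are known targets of PPAR and ERR nuclear receptors, which bind elements built from the half-site AGGTCA. The 250 bases before the annotated start of rat Eci1 (RefSeq, build GRCr8, chr10:13961000-13961249, plus strand, written 5′ to 3′) contain a single such half-site, on the opposite strand, whose letters are in capitals.
Eci1: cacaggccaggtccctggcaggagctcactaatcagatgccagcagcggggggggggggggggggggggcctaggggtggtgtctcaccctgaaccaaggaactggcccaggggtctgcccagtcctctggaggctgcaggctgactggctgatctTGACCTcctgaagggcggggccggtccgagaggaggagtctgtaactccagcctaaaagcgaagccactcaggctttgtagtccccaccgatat
The half-site begins 94 bases before the start. Over the 300 bases searched, which run from 250 before to 50 after the start, AGGTCA occurs on either strand in 15.7% of the 27457 promoters of the table. The ERR element AAGGTCA, which contains that half-site, occurs in 4.37% of promoters and was not found in this window. A DR1 element, taken as 2 half-sites spaced by 1 base with at most 1 mismatch in each, occurs in 2.24% and was not found either. Matches and their absence describe letters only.

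Neonatal ventricles, whose fuel use has only begun to turn from glucose and lactate to fatty acids, had less Eci1 transcript than adult control ventricles. Eci1 read 5282 and 6193 in neonatal hearts, against a range of 8764 to 12979 and a median of 9743 in the 18 adult control arrays. Decr1 read 9255 and 10556 in neonatal hearts, against 9559 to 16066 with a median of 13243 in adult controls. Ech1 read 9145 and 11368 in neonatal hearts, against 10737 to 16138 with a median of 12970 in adult controls. Both neonatal values of Eci1 were below every adult control, whereas 3 control arrays were below the higher neonatal value of Decr1 and 1 below that of Ech1.

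Eci1 fell by 0.81 ± 0.108 log2 in neonatal hearts relative to the equal mean of the 9 adult control groups (43.1% lower, limma adjusted p = 5.22e-07), a comparison in which 17% of all probe sets were called lower. Decr1 was at -0.37 ± 0.162 (adjusted p = 0.0823) and Ech1 at -0.33 ± 0.143 (adjusted p = 0.0724). After quantile normalization both passed (Decr1 -0.54, adjusted p = 0.00643; Ech1 -0.53, adjusted p = 0.00116). The call of Decr1 was also gained without vehicle replicate 2 (-0.40, adjusted p = 0.0422), and that of Ech1 without banded replicate 1 or 2 of 12 weeks (-0.33, adjusted p = 0.0406) or banded replicate 4 of 30 weeks (-0.33, adjusted p = 0.0497). Without 1 neonatal array Ech1 lay between -0.49 and -0.18 and Decr1 between -0.46 and -0.27. The second probe set of Decr1 was at 0.05 ± 0.27 (adjusted p = 0.909), while all 4 probe sets of Eci1 were called lower, by 0.31 to 0.90.

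Relative to Eci1, Ech1 was 0.48 log2 higher in neonatal than in adult control hearts (two-sided exact permutation test over the 190 choices of 2 among 20 arrays, p = 0.00526, the smallest this design allows; adjusted over 3 pairs 0.0158). Decr1 was 0.45 higher relative to Eci1 (exact p = 0.0684, adjusted 0.103), and Decr1 and Ech1 differed by -0.03 (exact p = 0.8, adjusted 0.8). The test was added after these values had been seen. With the second probe set of Eci1 these differences were 0.56 for Ech1 (exact p = 0.00526) and 0.53 for Decr1 (exact p = 0.0158). No test compared the hypertrophic with the neonatal differences.

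Most measured genes of the mitochondrial spiral fell beside the auxiliary enzymes in the average and after banding, and few or none passed in the other models. Of 11 measured genes of the core mitochondrial beta-oxidation list, 8 fell and 0 rose in the average over hypertrophic groups, with a median of -0.19 against 0.01 over all probe sets. The 4 with the largest fall were Acaa2 (-0.58 ± 0.0545, limma adjusted p = 5.93e-09), Hadhb (-0.42 ± 0.0737) and Hadha (-0.34 ± 0.0601), the subunits of the trifunctional protein, and Acadm, the medium-chain dehydrogenase (-0.31 ± 0.0687). Echs1, the hydratase whose demands the auxiliary enzymes serve, fell by 0.13 ± 0.0326 in the average (adjusted p = 0.0157), and was called in none of the models. It was at -0.09 ± 0.0492 after banding (limma adjusted p = 0.353), -0.06 after infarction and -0.05 with the shunt. Its larger differences were with the hormones, at -0.33 ± 0.102 with angiotensin II and -0.36 ± 0.102 with Ditpa (adjusted p = 0.546 and 0.359). After banding 7 of the 11 were lower, with a median of -0.46. After infarction 1 was (median -0.21), with the shunt (median -0.16), angiotensin II (-0.06) and Ditpa (-0.07) 0 were, and with the 5 models weighted equally 3 were (median -0.20).

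Of 12 measured genes that activate fatty acids or carry them into mitochondria, 2 fell, Acsl1 (-0.36 ± 0.0599), which couples fatty acids to CoA, and Cpt2 (-0.27 ± 0.0635), and the median was -0.10. In the peroxisomal pathway, 0 of 10 fell and 1 rose, the transporter Abcd3 (0.14 ± 0.0376). Decr2, the peroxisomal counterpart of Decr1, was at -0.03 ± 0.0498 (limma adjusted p = 0.846), with 14 of 26 arrays lower. Among 3 measured genes of mitochondrial NADPH supply, the cofactor that Decr1 consumes, Nnt, the proton-driven transhydrogenase, fell by 0.33 ± 0.0525 (adjusted p = 0.00011), and Idh2 (-0.08) and Glud1 (-0.05) were not called.

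Of the receptors, only Rxrg among 7 measured genes of the PPAR and ERR list was called (-0.22 ± 0.0523, limma adjusted p = 0.00773). Ppara, read by a dim probe set (mean intensity 701), was at -0.04 ± 0.0727 (adjusted p = 0.863) and Esrra at -0.14 ± 0.0502 (adjusted p = 0.103). None of 7 measured PPAR-alpha targets outside beta-oxidation and none of 3 genes of desaturation and elongation was called in the average, among them Scd, the stearoyl-CoA desaturase that makes oleate (0.00 ± 0.0554). By model, 1 of these 7 targets was called lower after banding (median -0.17), and 1 of the 3 desaturation and elongation genes was called higher after infarction (median 0.08). In neonatal hearts 8 of the 11 core genes were lower than in adult controls, with a median of -0.64, against 17% of all probe sets and a median of -0.07, and Acadm (-1.39 ± 0.16) and Echs1 (-0.80 ± 0.0758) were among them.

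**Figure D4:**
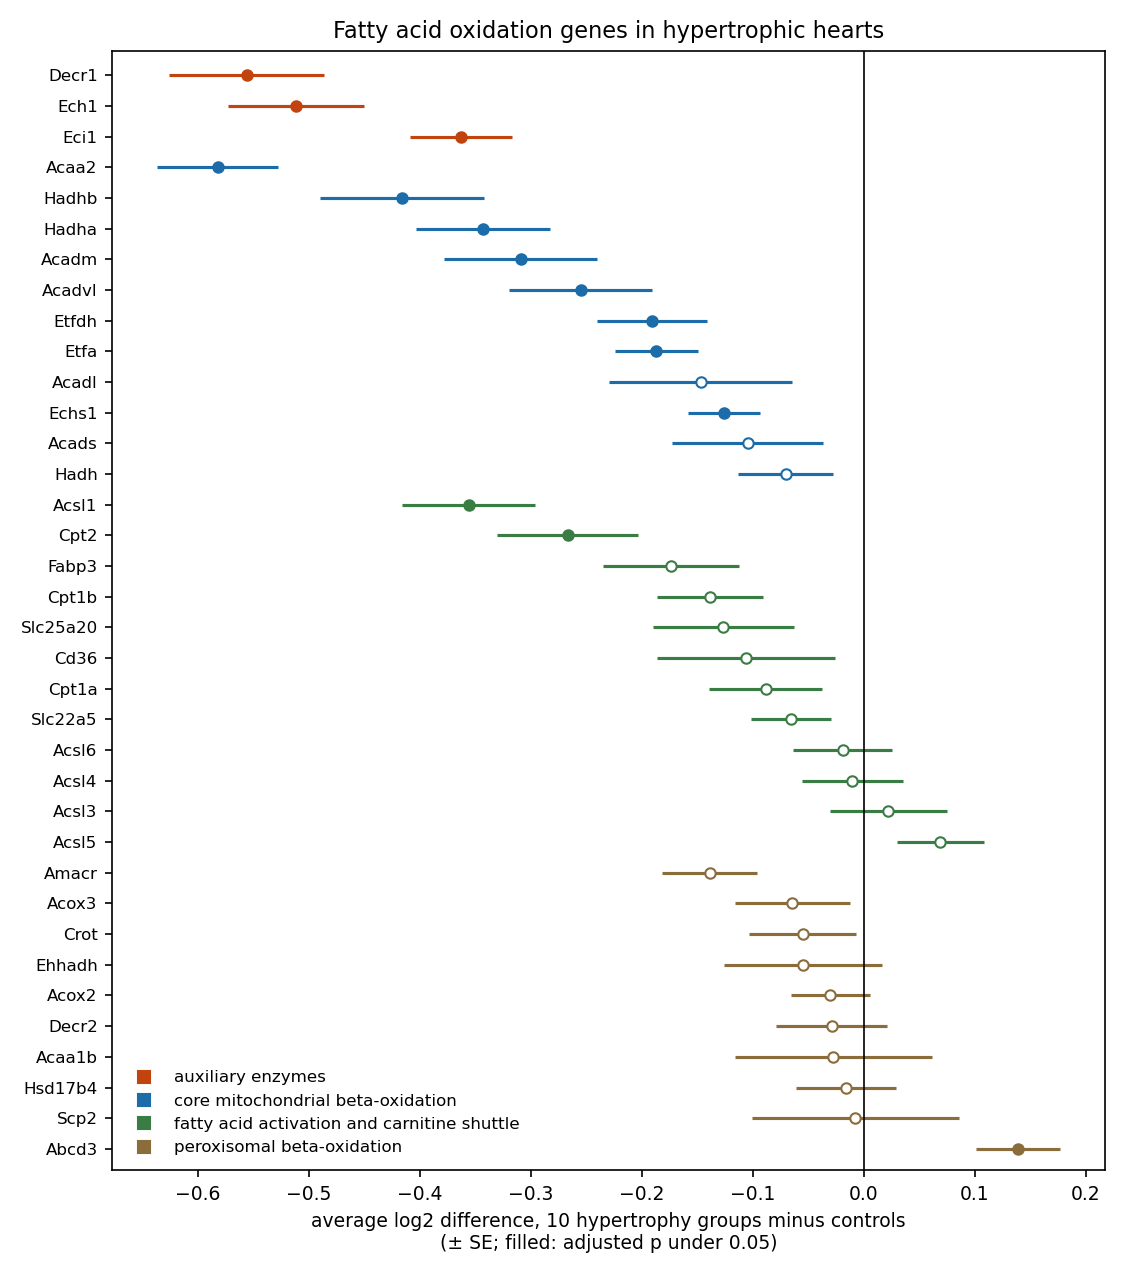
Average log2 difference between the 10 hypertrophic groups and their controls (± SE, filled where adjusted p was below 0.05) for the 3 auxiliary enzymes and for measured genes of core mitochondrial beta-oxidation, of fatty acid activation and the carnitine shuttle, and of peroxisomal beta-oxidation. Acaa2, Decr1 and Ech1 lie farthest left, with Hadhb, Eci1 and Acsl1 next, and 0 of 10 peroxisomal genes is filled left of 0.

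Markers of cell types were measured beside these results. None of 10 measured cardiomyocyte markers was called in the average or in any of the 5 models, with medians of 0.15 after banding, 0.06 after infarction, -0.25 with the shunt and -0.61 with either hormone, and their summed intensity ranged from 182600 to 445800 on hypertrophic arrays, against 216500 to 436400 on adult control arrays. After banding their median was 0.50, -0.18, 0.41 and -0.15 at 6, 12, 16 and 30 weeks. Of the 10, 8 were among the brightest 1% of probe sets, and whether these were saturated was not tested. Of 9 fibroblast markers 7 were higher after banding and 7 after infarction (summed intensity 39220 to 111000 on hypertrophic and 33690 to 62900 on adult control arrays), and 1 and 3 of 6 macrophage markers were higher in these models. In neonatal hearts 9 of 10 cardiomyocyte markers were lower (median -0.66, summed intensity 190100 and 232900). Of the fibroblast markers 6 of 9 were higher (median 1.45, summed intensity 67440 and 98060) and 1 was lower, and 3 of 6 macrophage markers were lower (median -0.34). Myl7 and Myl4, the measured genes of the atrial list, were both higher (median 2.23). Whether they stand for atrial tissue in neonatal samples was not tested. No marker of these lists was at the lowest value of the scale. The part of cell composition in the differences of Decr1, Ech1 and Eci1 was not tested.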

How the data were processed

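Left ventricular RNA pools were hybridised to RGU34A GeneChips. The deposited intensity values were model-based expression values that the authors computed with dChip from perfect-match probes after invariant rank normalization; 0.0303% lay below 16. Scanner files were not used here. Lower values were set to 16 before taking log2, and limma 3.58.1 (R 4.3.3) was fitted with 20 group means over 46 arrays, with Benjamini-Hochberg adjustment over 8740 probe sets. The procedure was tested on simulated data. GEO's platform annotation gave 1 symbol to 7006 probe sets (4736 genes), several to 308 and none to 1426. Effects were averaged equally over groups or models, which share vehicle arrays between the hormone groups. Named were all probe sets of the genes, the 3 genes most correlated with each, and up to 4 called genes per list and direction; Echs1, Decr2, Idh2, Glud1, Ppara, Esrra, Scd and the neonatal genes were added for their roles. Members and lists were chosen with earlier results of these data known. Alternatives were other floors, quantile normalization, a brightness filter, array weights, the mean of a gene's probe sets and a replicate block. Further ones were other weightings and control sets, an exact form of the methods' rank sum test, and leaving out each array. Array number limits precision.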

Additional observations from a re-analysis of the deposited data

Results flagged for a closer look

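Eci1 by its brightest probe set lay on opposite sides of its controls between models. Both Ditpa arrays were above vehicle (0.18 log2), whereas all 10 banding, all 8 infarction and all 4 shunt arrays were below their shams. The Ditpa difference did not pass limma (adjusted p = 1), and the difference between Ditpa and the other models was tested only within the F test over 5 models, where Eci1 had an adjusted p of 0.08. By the second brightest probe set of Eci1, 1 of the 2 Ditpa arrays was below vehicle, and the mean was 0.10.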

How the results depend on the processing

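Of 348 values under other settings, 321 kept their direction and side of the threshold, 12 lost a call, 12 gained one and 3 changed sign. Without the banding groups the averages of Decr1 (-0.29) and Eci1 (-0.20) were no longer called. In neonatal hearts Decr1 gained a call under quantile normalization (-0.54) and without the banding shams (-0.43), and Ech1 under quantile normalization (-0.53) and array weights (-0.33). The sign of the uncalled Ditpa difference turned for Decr1 under quantile normalization (0.14) and with the mean of its probe sets (0.051), and for Ech1 under quantile normalization (0.065). Of the 12 gained calls, 7 were single infarction times, 6 of them with array weights. Called gene and group pairs were 4 with the mean of all probe sets and 13 with array weights, in place of 9. Leaving out 1 array gave averages of -0.62 to -0.49 for Decr1, -0.55 to -0.48 for Ech1 and -0.38 to -0.34 for Eci1, neonatal differences of -0.46 to -0.27, -0.49 to -0.18 and -0.93 to -0.70 for the same genes, and 5 to 12 called pairs (5 without the 30-week banding sham replicate 5). It also turned the sign of uncalled hormone differences, which ranged from -0.31 to 0.35 (angiotensin II) and -0.36 to 0.31 (Ditpa) for Decr1 and from -0.30 to 0.10 (angiotensin II) for Eci1. The methods' rank sum test, run here in exact form, called all 3 genes (Bonferroni p = 0.00132, 2.36e-06 and 0.0299 for Decr1, Ech1 and Eci1). In it each control array was divided by the mean of its own control group. The control values are therefore not independent, and these p-values are approximate. The authors ran a rank sum test with Bonferroni correction on these same arrays. Their list of commonly regulated genes holds a dienoyl-CoA reductase, a dodecenoyl-CoA isomerase and an enoyl-CoA hydratase-like gene. The rank sum result here is therefore no independent check. The cause of these shifts was not tested. Replicate numbers shared by the vehicle, hormone and neonatal arrays did not pair them (correlations of deviations from -0.143 to 0.152); with the replicate block the averages were -0.56, -0.51 and -0.36, the neonatal differences -0.32, -0.25 and -0.73, and the calls of the average over all probe sets went to 450, against 455 without it. With 2 pools in most groups, single time points carry little weight.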
